A study of Mus musculus with 8 samples.

Results

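The genes described here belong to the sensing of lipopolysaccharide, the glycolipid of the outer membrane of Gram-negative bacteria. They were taken by name, as every probe set annotated to Cd14, Tlr4, Ly96, Lbp, Tlr2 or Myd88, whatever its values. The genes were chosen with earlier results of these data known, as were the pathway lists used below. Of these 6 genes, 3 were matched to a probe set (Cd14, Lbp and Myd88, 1 probe set each), out of 12422 probe sets of the array. Tlr4, Ly96 and Tlr2 were matched to none and are not analysed here. The published study put Cd14 forward from these same samples, so its strain difference below is no independent evidence for that choice.

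Lbp encodes a serum protein that takes lipopolysaccharide out of bacterial membranes and hands it to CD14, a membrane-anchored or soluble co-receptor. CD14 passes it on to the receptor TLR4 and its partner MD-2, the product of Ly96, and the adaptor MyD88 then recruits the kinases that lead to NF-kappa B. TLR2 senses bacterial lipoproteins, also with the help of CD14, and signals through MyD88. The C3H/HeJ lineage, to which C3H/HeJBir belongs, carries a defective Tlr4 with a proline replaced by histidine in its cytoplasmic part, which makes the mice respond poorly to lipopolysaccharide.

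RNA of whole mouse colon was hybridised to 8 Affymetrix MG_U74Av2 arrays, 1 for each pool of 4 or 5 animals with 7 µg of RNA from each animal. The 4 groups, with 2 pools each, were C3H/HeJBir-Il10tm1Cgn and C3H/HeJBir, and C57BL/6J-Il10tm1Cgn and C57BL/6J. The allele Il10tm1Cgn is a targeted disruption of Il10, the gene of the anti-inflammatory cytokine interleukin 10, and its carriers are called Il10-null here and the others wild type. An age of 4 weeks is stated for 1 pool only, sample 2 of C57BL/6J wild type, and no group received a treatment in the labels. Pooling hides the spread between animals, so the error below is that between pools, and p values rest on 2 pools per group. In whole tissue, fewer cells of a type and less RNA per cell cannot be told apart.

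Median intensity per array was 50.1 to 62.2 units, and with 8 arrays their number limits the precision. All 12 colon epithelium markers on the array (among them Cdh1, Krt20, Car1 and Fcgbp) had a mean above the filter on low values, 37.0 units, so the tissue label was borne by its markers. The sample 1 Il10-null pool of C3H/HeJBir resembled the other arrays least (mean Spearman coefficient 0.915, beside 0.931 to 0.945 for the 7 remaining pools). Xist, the RNA of the inactive X chromosome, was at 243 to 452 in the pools numbered sample 1 and at 2.84 to 12.9 in those numbered sample 2, so the numbered sets differed. The Il10 probe set read 31.8 ± 4.99 in C3H/HeJBir Il10-null against 8.17 ± 3.87 in C3H/HeJBir wild type, and 36.9 ± 21.0 in C57BL/6J Il10-null against 8.52 ± 1.67 in C57BL/6J wild type (SD, n = 2 each). The labels do not say whether its probes fall in the disrupted part of the gene, so it checks no label.

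Cd14, which lies on chromosome 18, was the member that differed between strains. In C3H/HeJBir its deposited intensity in samples 1 and 2 was 3829.5 and 2338 for Il10-null and 1696 and 1881 for wild type. In C57BL/6J it was 485 and 556 for Il10-null and 344 and 341 for wild type. The lowest C3H/HeJBir pool therefore read above the highest C57BL/6J pool, and within each strain both Il10-null pools read above both wild-type pools. As mean ± SD the order of the groups was 3084 ± 1055 in C3H/HeJBir Il10-null, 1788 ± 131 in C3H/HeJBir wild type, 521 ± 50.3 in C57BL/6J Il10-null and 343 ± 2.03 in C57BL/6J wild type (n = 2 each).

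**Figure D1:**
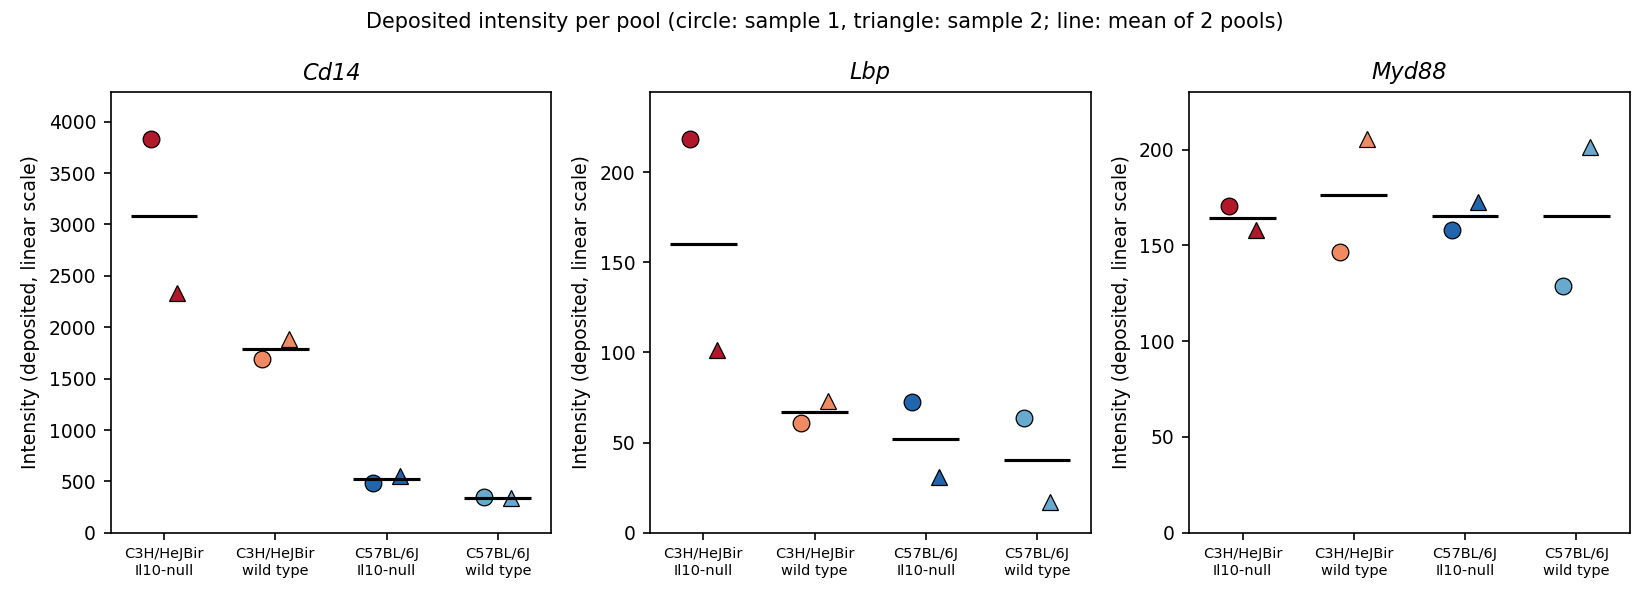
Deposited intensity (linear axis from 0) of Cd14, Lbp and Myd88 in the 8 pools, by group; circles are sample 1, triangles sample 2 and lines the mean of 2 pools. The 4 C3H/HeJBir pools read 1696 to 3829.5 for Cd14, all above the C57BL/6J pools at 341 to 556, while the Myd88 pools of the 4 groups overlap.

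The comparison of C3H/HeJBir with C57BL/6J set a strain of the lineage with the defective Tlr4 against one without it, and their genomes differ in many other genes. In wild type, Cd14 was higher in C3H/HeJBir by a log2 difference of 2.34 ± 0.28, or 5.08-fold (limma adjusted p = 0.00958), measured as log2 of the intensity plus a pseudocount of 11.07. In Il10-null colon it was higher by 2.50 ± 0.28, or 5.66-fold (limma adjusted p = 0.0112). Averaged over both genotypes the difference was 2.42 ± 0.20, or 5.36-fold, with a 95% interval of 1.97 to 2.87 (limma adjusted p = 0.000989). Of all 7454 tested probe sets, 0.402% passed in wild type, 0.295% in Il10-null and 1.11% for the average, and 1 of 3 members passed in each, Cd14. An unadjusted p under 0.05 was reached by Cd14 alone in wild type and by Cd14 and Lbp in Il10-null and on average, where 5.67%, 5.17% and 8.43% of probe sets reached it. The strains' pools were fully separated, with C3H/HeJBir higher, for 14% of probe sets in wild type, 11.9% in Il10-null and 2.67% over all 4 against 4 pools, Cd14 being among them in each case. Its average difference ranked 21st by size and 10th by p value among those probe sets.

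The strains shared a hybridisation day within each genotype and sample number, so each such pair gives a value within a day. C3H/HeJBir Il10-null over C57BL/6J Il10-null was 7.89-fold between the sample 1 pools and 4.20-fold between the sample 2 pools for Cd14, as ratio of intensities. C3H/HeJBir wild type over C57BL/6J wild type was 4.93-fold for sample 1 and 5.51-fold for sample 2. Cd14 was thus higher in C3H/HeJBir in 4 of 4 same-day pairs, as the full separation of the strains' pools already fixes. These pairs include the sample 2 pools, in which Xist was low throughout. With the day as a block the average difference still passed (2.42, limma adjusted p = 0.0110), while those within wild type (adjusted p = 0.0656) and within Il10-null (adjusted p = 0.0702) no longer did, at the same log2 values of 2.34 and 2.50. The call in wild type also ended without any 1 of the 4 wild-type pools (2.27 to 2.42), and that in Il10-null without either C57BL/6J Il10-null pool (2.40 and 2.60) or with only the Il10-null groups in the fit (adjusted p = 0.0725).

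Macrophages and monocytes, cells known to carry CD14, had 10 of 12 markers above the filter, including Csf1r, Cd68, C1qa and Lyz2. None of the 12 averaged below the pseudocount, and Adgre1, which encodes the macrophage antigen F4/80, read 7.93 to 47.8 over the 8 pools. Their summed intensity was 1648 to 2254 in the C3H/HeJBir pools and 1351 to 1787 in the C57BL/6J pools, with overlapping ranges. Of the 12 markers, 2 read higher in all C3H/HeJBir pools than in all C57BL/6J pools: Lyz2, at 303 to 516 in C3H/HeJBir against 105 to 253 in C57BL/6J, and C1qa, at 333 to 438 against 259 to 317. None read lower in all of them. Over all tested probe sets, 2.67% read higher in all C3H/HeJBir pools, and the share reading lower is not given here. The ranges of the other markers overlapped between the strains. Among these, C1qb, C1qc, Cd68 and Fcgr1 read highest in a C57BL/6J pool and the rest in a C3H/HeJBir pool. C1qb read 135 to 237 in C3H/HeJBir against 175 to 290 in C57BL/6J. In the same pools the ratio of mean Cd14 was 5.64. Neutrophil markers summed to 1030 to 3302 in the C3H/HeJBir pools against 805 to 1394 in the C57BL/6J pools, with 4 of 10 above the filter and Ngp below the pseudocount. Most of that sum came from Ly6g, at 643 to 2262 in C3H/HeJBir against 462 to 1027 in C57BL/6J, and without it the sums were 314 to 1041 against 314 to 451. B and plasma cell markers, all 4 above the filter, summed to 430.4 to 924 in the C3H/HeJBir pools against 332 to 533 in the C57BL/6J pools. Jchain, the brightest of them, read 336 to 662 against 226 to 370. These ranges overlapped, and so did the sums without Jchain, at 94.6 to 269 against 103 to 232. Eif2s3y, a gene of the Y chromosome, read 242 to 411 in the C3H/HeJBir pools and 39.65 to 263 in the C57BL/6J pools. The part of these sets of cells and of the sexes of the animals in the Cd14 difference was not tested.

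**Figure D2:**
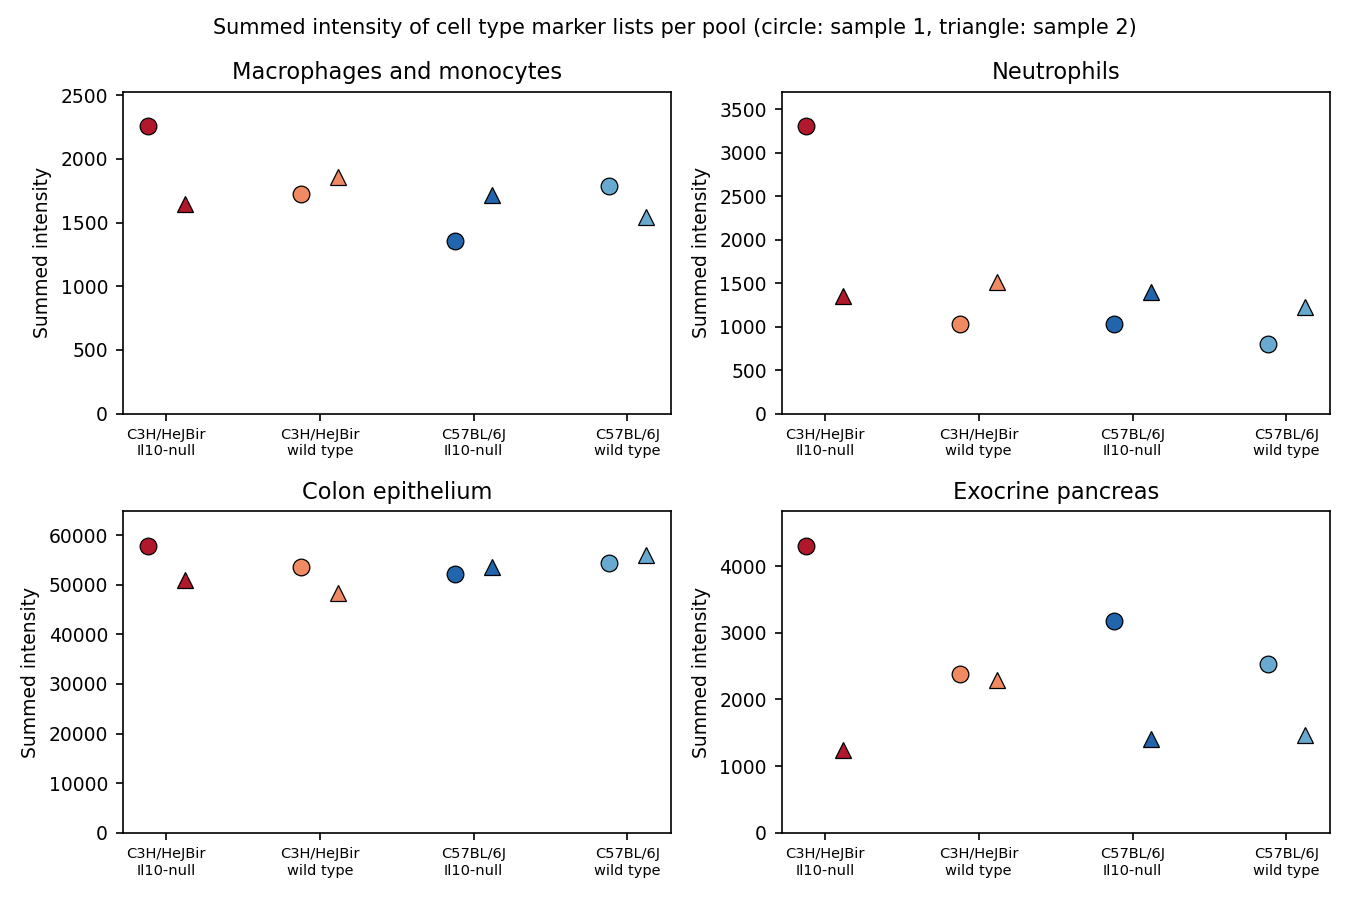
Summed intensity (linear axis from 0) of 4 cell type marker lists in each pool; circles are sample 1 and triangles sample 2. Sample 1 of C3H/HeJBir Il10-null is the highest for neutrophil (3302) and exocrine pancreas markers (4307), and the macrophage sums of the strains overlap.

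The same pool, which held the highest Cd14 and Lbp values, was the lowest for smooth muscle markers, at 9693 against 11895 to 17316 in the other 7 pools, with 8 of 8 markers above the filter. It was also the lowest for fibroblast markers, 7 of 7 above the filter, at 3334 against 4686 to 6273. Without it Cd14 still passed in Il10-null (2.15, limma adjusted p = 0.0366) and for the average strain effect (2.25, limma adjusted p = 0.00157).

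The position of Cd14 was examined through its neighbours, a view chosen after the Cd14 values had been seen. Among 139 tested genes of chromosome 18, the 3 nearest tested genes on each side in gene order were Hbegf, Ankhd1, Sra1, Ndufa2, Ik and Hars. Hbegf encodes a growth factor of the EGF family and Hars a histidyl-tRNA synthetase. Their average strain differences ran from -0.43 for Hbegf to 0.35 for Hars on the log2 scale. In limma 0 of 6 passed, beside 1.11% of all tested probe sets. An unadjusted p under 0.05 was reached by 0 of 6, beside 8.43%, so with 6 genes both counts are near those shares. The strain difference of Cd14, at 2.42, lay outside the range of these neighbours. It ranked 21st by size among the 7454 tested probe sets, so a range of 6 genes that leaves it out is no test of its position. Probe sequences, and with them any strain variant under the Cd14 probes, are not analysed here.

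Loss of Il10 was examined within each strain, as Il10-null minus wild type. Cd14 was 1.72-fold in C3H/HeJBir, as ratio of mean intensities, and 1.52-fold in C57BL/6J, and in neither strain did it pass. The log2 difference was 0.74 ± 0.28 in C3H/HeJBir (95% interval 0.11 to 1.38, limma adjusted p = 0.999) and 0.58 ± 0.28 in C57BL/6J (interval -0.05 to 1.22, adjusted p = 1.00). Of all tested probe sets 0.0134% passed in C3H/HeJBir and 0% in C57BL/6J, and 0 of 3 members did in either. An unadjusted p under 0.05 was reached by 1 of 3 members in C3H/HeJBir, Cd14, beside 2.83% of probe sets, and by 0 of 3 in C57BL/6J, beside 1.58%. Both Il10-null pools read above both wild-type pools in C3H/HeJBir for 11.3% of probe sets and in C57BL/6J for 12.6%, so the same separation for Cd14 is common on these arrays. By sample number, Il10-null over wild type was 2.26-fold and 1.24-fold in C3H/HeJBir and 1.41-fold and 1.63-fold in C57BL/6J.

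Averaged over the strains, the Il10 difference of Cd14 was 0.66 ± 0.20 on the log2 scale, positive in 4 of 4 same-numbered pairs, as the separation within each strain already fixes. It did not pass (limma adjusted p = 1.00), and 0 of 3 members and 0% of probe sets did. Cd14 was the 1 member of 3 at an unadjusted p under 0.05, as 3.1% of probe sets were. Without the first of the C3H/HeJBir Il10-null pools, sample 1, the difference in C3H/HeJBir was 0.39 and the average 0.49. The sample 1 pools of the genotypes were hybridised on different days, and with the day as a block the values were 0.58 in C3H/HeJBir and 0.42 in C57BL/6J. The difference between the Il10 effects, C3H/HeJBir minus C57BL/6J, was 0.16 ± 0.39, with a 95% interval of -0.74 to 1.06 (limma adjusted p = 1.00). It was -0.20 without that pool. In this comparison 0 of 3 members and 0% of probe sets passed in limma, and 0 of 3 members and 1.49% of probe sets had an unadjusted p under 0.05.

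Lbp, on chromosome 2, was measured with a larger error than Cd14 and Myd88, and none of its differences passed. In C3H/HeJBir it read 218 and 102 for Il10-null and 61.1 and 73.2 for wild type, in samples 1 and 2. In C57BL/6J it read 72.55 and 31.2 for Il10-null and 63.9 and 17.2 for wild type. Both C3H/HeJBir Il10-null values lay above those of all other pools, and the sample 1 pools of C57BL/6J fell within the range of C3H/HeJBir wild type, so the strains overlapped. As mean ± SD Lbp was at 159.9 ± 82.4 in C3H/HeJBir Il10-null and 67.1 ± 8.57 in C3H/HeJBir wild type (n = 2 each). It was at 51.9 ± 29.2 in C57BL/6J Il10-null and 40.55 ± 33.0 in C57BL/6J wild type (n = 2 each). The groups other than C3H/HeJBir Il10-null do not differ beyond their spread. C3H/HeJBir Il10-null had the widest spread, and its tested differences did not pass.

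The average strain difference of Lbp was 1.10 ± 0.38 on the log2 scale, or 2.14-fold, with a 95% interval of 0.23 to 1.97, and did not pass (limma adjusted p = 0.395). In Il10-null it was 1.43 ± 0.54 (limma adjusted p = 0.795) and in wild type 0.76 ± 0.54 (adjusted p = 1.00). Single pools moved these values: with 1 pool left out in turn they ran from 0.92 to 1.95 in Il10-null (both ends without a C3H/HeJBir Il10-null pool), 0.057 to 1.46 in wild type (both ends without a C57BL/6J wild-type pool) and 0.75 to 1.45 on average, and none passed. The same-day wild-type pairs differed in sign, with C3H/HeJBir over C57BL/6J at 0.956-fold for sample 1 and 4.26-fold for sample 2. The same-day Il10-null pairs had ratios of 3.01 and 3.26. Loss of Il10 gave a log2 difference of 1.04 ± 0.54 in C3H/HeJBir, which was 0.53 without the sample 1 Il10-null pool, and 0.37 ± 0.54 in C57BL/6J, and neither passed (limma adjusted p = 0.999 and 1.00).

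Lbp is made in large amounts by the liver, and 7 hepatocyte markers were on the array. Of these 2 lay above the filter (Tat and Ttr), and Fga and Fgb averaged below the pseudocount. Summed, they were at 368 to 478 in C3H/HeJBir Il10-null against 241 to 289 in C3H/HeJBir wild type, and at 323 to 448 in C57BL/6J Il10-null against 300.15 to 309 in C57BL/6J wild type. Tat, an enzyme of tyrosine breakdown, was the brightest of them, and without it the genotypes overlapped, at 121 to 168 against 85.85 to 123 in C3H/HeJBir and 121 to 185 against 101 to 147 in C57BL/6J. Exocrine pancreas markers, 6 of 7 above the filter, summed to 4307 in sample 1 of C3H/HeJBir Il10-null, where Lbp was highest, and to 1249 in sample 2 of that group. In the other groups they summed to 2296 to 2375 in C3H/HeJBir wild type, 1411 to 3176 in C57BL/6J Il10-null and 1474 to 2538 in C57BL/6J wild type. Of the neutrophil markers, S100a8, S100a9, Ly6g, Camp and Ltf were highest in that same pool. S100a8 read 581 there against 9.53 to 35.0 in the other 7 pools. Csf3r and Mpo were lowest there, Csf3r at 59.7 against 140 to 320 and Mpo at 8.21 against 12.5 to 29.1. The part of these cell types in the Lbp values was not tested.

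Myd88, on chromosome 9, read 170.4 and 158 in C3H/HeJBir Il10-null, 147 and 205 in C3H/HeJBir wild type, 158 and 172 in C57BL/6J Il10-null, and 129 and 201 in C57BL/6J wild type. All 4 groups overlapped, and the wild-type groups spanned the whole range. Its means were 164 ± 8.63, 176 ± 41.5, 165 ± 10.3 and 165 ± 51.4 in that order (SD, n = 2 each). The average strain difference was 0.05 ± 0.20 on the log2 scale, with a 95% interval of -0.41 to 0.50 (limma adjusted p = 0.997). The average Il10 difference was -0.02 ± 0.20, with an interval of -0.48 to 0.43 (adjusted p = 1.00). Both intervals lie below that of the strain difference of Cd14, 1.97 to 2.87. Within each strain the Il10 difference was -0.08 ± 0.28 in C3H/HeJBir and 0.03 ± 0.28 in C57BL/6J.

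**Figure D3:**
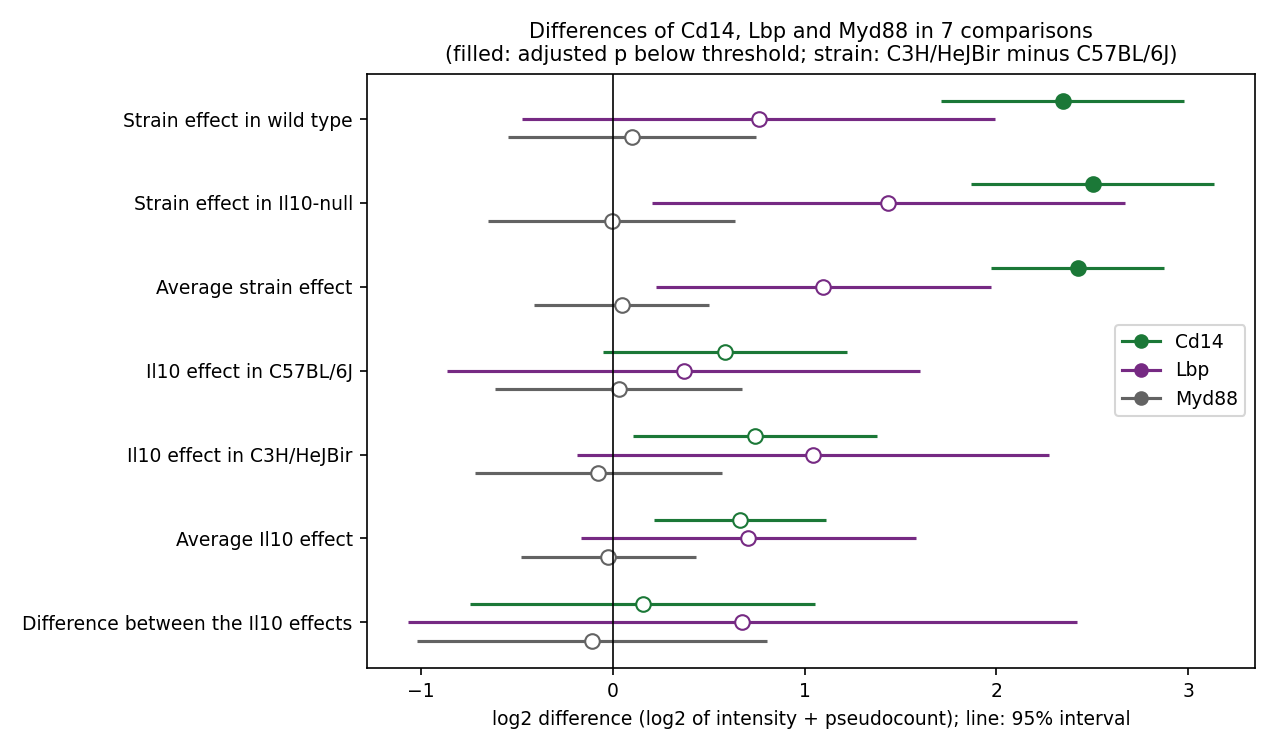
Log2 differences of Cd14, Lbp and Myd88 in 7 comparisons (points) with unadjusted 95% intervals (lines); filled points passed in limma after adjustment over 7454 probe sets. Only the 3 strain differences of Cd14, at 2.34 to 2.50, are filled, and every interval of Myd88 includes 0.

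The rest of the pathway was read from 6 lists with 103 genes, of which 73 were on the array and 49 passed the filter on low values. In limma 0 of 49 passed in any of the 7 comparisons, where 0% to 1.11% of all tested probe sets passed. With 49 genes a count of 0 is near those shares. For the average strain effect the median log2 difference over the 49 genes was 0.11, beside -0.02 over all 5689 tested genes, and 59.2% of the differences were positive, beside 46.2% over all genes. An unadjusted p under 0.05 was reached by 3 of 49 (6.12%), Saa3, Nfkb2 and Traf6, a smaller share than the 8.03% over all genes. For the average Il10 effect the median was 0.18, beside -0.01, and 73.5% were positive, beside 47.2%. Here 8 of 49 (16.3%) reached an unadjusted p under 0.05, beside 3.04% over all genes. These were Cxcl1, Cxcl5, Nos2, Nfkbiz, Atf3, Socs3 and Ikbke with positive differences and Irf7, an interferon regulatory factor, with a negative one of -0.52 ± 0.21. Of the 49 genes, 5 (Cxcl1, Cxcl5, Ly86, Msr1 and Nos2) passed the filter only through their highest pool, so these counts describe the genes that passed and are no test of the lists. The shares with an unadjusted p under 0.05 were 2.04% of pathway genes beside 1.6% of all genes for Il10 loss in C57BL/6J, 10.2% beside 2.79% for Il10 loss in C3H/HeJBir, 0% beside 1.42% for their difference, 4.08% beside 5.31% for strain in wild type and 4.08% beside 4.96% for strain in Il10-null.

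Among receptors, Tlr6, the partner of TLR2 for some lipoproteins, read 71.8 and 52.6 in C3H/HeJBir Il10-null, 40.7 and 38.0 in C3H/HeJBir wild type, 48.2 and 76.8 in C57BL/6J Il10-null, and 48.4 and 52.5 in C57BL/6J wild type. Its average strain difference was -0.14 ± 0.19 and its average Il10 difference 0.38 ± 0.19 on the log2 scale, and neither passed (limma adjusted p = 0.997 and 1.00). Ly86, which encodes MD-1, the partner of the TLR4 homologue CD180, had -0.43 ± 0.38 and -0.42 ± 0.38. Tlr7 and Cd180 lay below the filter, with means of 9.77 and 13.9 units.

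Of 9 tested adaptors and kinases, 0 passed in either average comparison, beside 1.11% of all tested probe sets for strain and 0% for Il10. Traf6, the ubiquitin ligase downstream of MyD88, read 211 and 169 in C3H/HeJBir Il10-null, 136 and 134 in C3H/HeJBir wild type, 98.3 and 122 in C57BL/6J Il10-null, and 137 and 104.5 in C57BL/6J wild type. Its average strain difference was 0.44 ± 0.17 (limma adjusted p = 0.503). Ikbke, a kinase of the interferon branch, had an average strain difference of 0.48 ± 0.23 and an average Il10 difference of 0.73 ± 0.23. Tbk1, its relative, had an average Il10 difference of 0.21 ± 0.19.

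Of 15 tested transcription factors and inhibitors of kappa B, Nfkb2, a subunit of NF-kappa B, had the smallest adjusted p of all 49 genes for the average strain effect. It read 56.9 and 91.0 in C3H/HeJBir Il10-null, 48.2 and 48.4 in C3H/HeJBir wild type, 123 and 80.1 in C57BL/6J Il10-null, and 131 and 93.1 in C57BL/6J wild type. The strains overlapped, and the log2 difference was -0.72 ± 0.22 (limma adjusted p = 0.283). Nfkbie, an inhibitor of NF-kappa B, had 0.53 ± 0.23. Nfkbiz, an inducible nuclear regulator of NF-kappa B, had an average Il10 difference of 0.72 ± 0.19 and Atf3, a stress-induced repressor, 0.55 ± 0.22, and neither passed (limma adjusted p = 1.00). Both Il10-null pools of Nfkbiz read above both wild-type pools in each strain, at 364 and 260.3 against 134 and 163 in C3H/HeJBir and 190.1 and 251 against 144 and 174 in C57BL/6J. The same separation was found for 11.3% of all tested probe sets in C3H/HeJBir and 12.6% in C57BL/6J. The share with it in both strains was not counted.

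Of 7 tested inhibitors of the pathway, Socs3, which restrains cytokine signals, read 290.04 and 133 in C3H/HeJBir Il10-null against 22.55 and 96.4 in C3H/HeJBir wild type, and 40.7 and 163 in C57BL/6J Il10-null against 43.55 and 54.45 in C57BL/6J wild type. The average Il10 difference was 1.23 ± 0.49 for Socs3 and 0.79 ± 0.35 for its relative Socs1, and the average strain differences were 0.57 ± 0.49 and 0.53 ± 0.35. None passed. A second probe set of Socs3 had 1.09 for Il10 and 0.98 for strain. Tollip, which binds kinases of the pathway, had an Il10 difference of 0.61 ± 0.23 in C57BL/6J (limma adjusted p = 1.00), and 0.32 on its other probe set, and the average strain differences of these probe sets had opposite signs, 0.31 and -0.17.

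Of 6 tested genes of other lipopolysaccharide handling, Casp4, the mouse inflammatory caspase, whose product binds lipopolysaccharide in the cytosol, read 376 and 364 in C3H/HeJBir Il10-null against 199 and 210.45 in C3H/HeJBir wild type, and 137 and 297 in C57BL/6J Il10-null against 140.2 and 249 in C57BL/6J wild type. It had an average strain difference of 0.48 ± 0.27 and an average Il10 difference of 0.47 ± 0.27. Pglyrp1, a peptidoglycan-binding protein, had an average strain difference of 0.22 ± 0.24, and -0.0077 on a second probe set, and Msr1, a scavenger receptor, an average Il10 difference of -0.41 ± 0.28. None of these passed.

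Of 24 genes that lipopolysaccharide induces in many cells, all were on the array and 10 were tested. The other 14 lay below the filter, among them Il6, Il1b and Tnf with means of 5.03, 9.19 and 33.3 units. Saa3, an acute-phase protein, read 669 and 226 in C3H/HeJBir Il10-null and 234 and 166 in C3H/HeJBir wild type, against 145 and 185 in C57BL/6J Il10-null and 128 and 138 in C57BL/6J wild type. Its average strain difference was 0.86 ± 0.32 (limma adjusted p = 0.449), and that of Gadd45b, a stress-induced regulator of growth, -0.66 ± 0.33, with -0.079 on a second probe set. Cxcl1, a chemokine that attracts neutrophils, read 146 and 43.8 in C3H/HeJBir Il10-null against 3.7 and 18.7 in C3H/HeJBir wild type, and 27.8 and 33.8 in C57BL/6J Il10-null against 5.72 and 21.9 in C57BL/6J wild type. Its average Il10 difference was 1.49 ± 0.39 and that of Cxcl5, a related chemokine, 1.32 ± 0.58, and neither passed (limma adjusted p = 1.00). Both were tested only because of sample 1 of C3H/HeJBir Il10-null: without that pool their means were 22.2 and 23.9, below the filter. Cxcl5 read 293 in sample 1 of C3H/HeJBir Il10-null, where the summed neutrophil markers were highest, and 15.4 to 45.3 in the other 7 pools. With sample 2 of that group left out, the group rests on sample 1 alone and is assumed to vary like the other groups. Cxcl5 then passed in 4 comparisons (limma adjusted p = 0.0144 to 0.0407) and Saa3 for the average strain effect (1.24, limma adjusted p = 0.0372), which describes that pool. The part of neutrophils in these values was not tested.

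**Figure D4:**
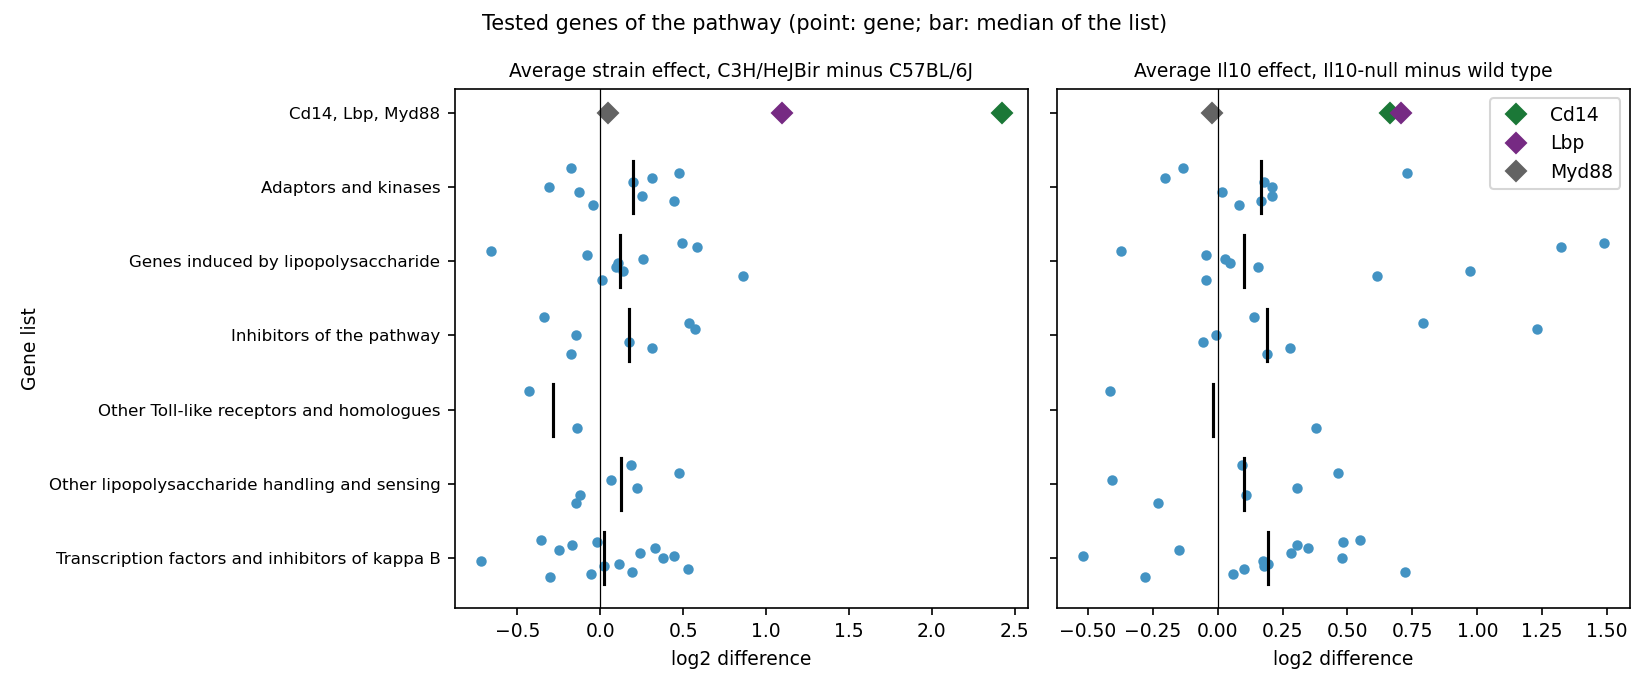
Log2 differences of Cd14, Lbp and Myd88 (diamonds) and of the 49 tested genes of 6 pathway lists (points, with the median of each list as a bar), for the average strain effect and the average Il10 effect. Cd14 at 2.42 lies to the right of every pathway gene in the strain panel, where the next is Lbp at 1.10. The largest Il10 difference, 1.49, belongs to Cxcl1, which passed the filter only through its highest pool.

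The genes whose pattern was most like that of Cd14 were sought among 5686 tested genes by Pearson's r over the 8 pools on the log2 scale. The 5 highest were Mmp7 (r = 0.985), a metalloproteinase, Ifi202b (0.980), a DNA-binding protein of the Ifi200 family, Gbp2b (0.978), a guanylate-binding GTPase, Slpi (0.976), an inhibitor of leukocyte proteases, and Pla2g2a (0.973), a secreted phospholipase. The pools form 2 separate sets by strain, with 4 pools each, so that r mainly reads the gap between strains and is given as a description. These genes lie on chromosomes 9, 1, 3, 2 and 4 in that order, and Cd14 on chromosome 18.

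Slpi averaged 2539 ± 1417 in C3H/HeJBir Il10-null, 2044 ± 329 in C3H/HeJBir wild type, 158 ± 23.5 in C57BL/6J Il10-null and 127 ± 9.04 in C57BL/6J wild type. Mmp7 averaged 267 ± 58.9, 149.9 ± 48.9, 12.2 ± 0.205 and 6.43 ± 0.841 in the same order of groups. The average strain difference of Slpi was 3.85 ± 0.27 on the log2 scale. In C57BL/6J the other 4 genes read close to the pseudocount or below it in at least 1 pool, with 5.84 to 12.4 for Mmp7, 0.50 to 14.8 for Ifi202b, 3.62 to 25.4 for Gbp2b and 6.38 to 44.9 for Pla2g2a. They passed the filter through the C3H/HeJBir pools, and no fold change is given for them. Pla2g2a and Gbp2b, like Cd14, were put forward by the published study. The choice by likeness to Cd14 fixes the direction of these differences, so no test is given.

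**Figure D5:**
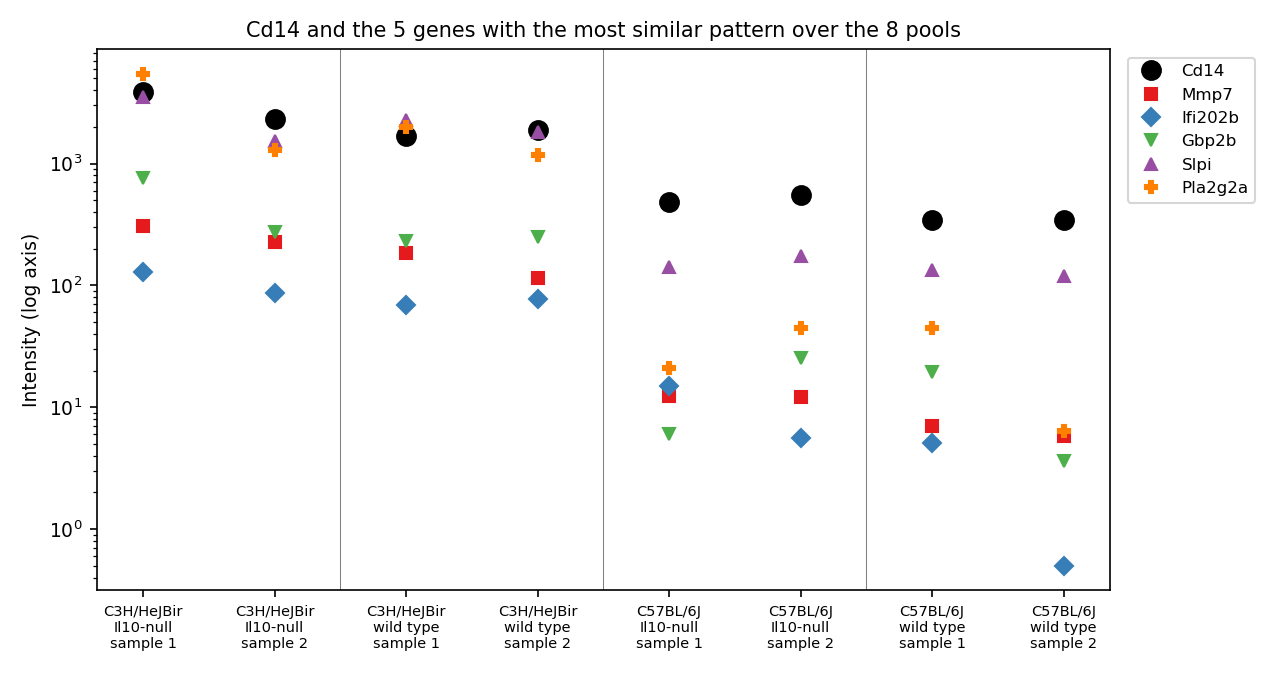
Deposited intensity (log axis) of Cd14 and the 5 genes with the highest Pearson's r to it, in each of the 8 pools. Every gene reads higher in all 4 C3H/HeJBir pools than in the 4 C57BL/6J pools, and levels of different genes are not comparable.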

How the data were processed

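Each array file holds 1 deposited intensity per probe set, from 0.03 to 12860 on a linear scale. The authors' scaling was kept, as means trimmed by 2% at each end differed by at most 1.01-fold between arrays. How probes were summarised and corrected for background, and any detection calls, are not analysed here. Array type and hybridisation day came from the experiment files, per the file headers, with 3 days: the Il10-null pools of sample 1, the wild-type pools of sample 1, and the sample 2 pools. The platform annotation gave 1 symbol to 10833 of 12422 probe sets. Of these 10817 matched the RefSeq table of GRCm38.p6, used for chromosomes and gene order. Its coordinates are not printed, since the files name no build.

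The tests ran on log2(intensity + 11.07), a pseudocount at the 20th percentile of all values that lowers the fold changes of dim genes. They covered the 7454 probe sets with a mean of at least 37.0, the 40th percentile, and used limma 3.58.1 in R 4.3.3 with 4 group means and no block (4 residual and 4.23 prior degrees of freedom). They were two-sided, adjusted by Benjamini-Hochberg over all tested probe sets at a threshold of 0.05, and intervals are unadjusted. Their p values reflect how far pools, not animals, differ. The fit was tested on simulated data. Where a gene had several probe sets, the brightest on average stood for it. Named were all members, for the average effects the 2 genes of largest difference in each pathway list, genes singled out after their values were seen (Tollip, Irf7, Nos2), and the 5 genes most like Cd14. Some pathway genes below the filter were also named, by no rule set in advance (Tlr7, Cd180, Il6, Il1b, Tnf, Cxcl2, Cxcl10 and Ccl4). The members and lists were chosen with earlier results of these data known. Deviations of same-numbered pools from their group means correlated at 0.198 to 0.332 in 6 pairs of groups, so sample number was taken to pair the pools and was a block in an alternative. Other alternatives changed the pseudocount, filter, normalization, moderation, day block, groups fitted or probe set averaging, or left out 1 pool.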

Additional observations from a re-analysis of the deposited data

How the results depend on the processing

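The count of members past the threshold, 1 for each strain comparison (Cd14) and 0 for the 4 comparisons on Il10, stayed at 1 for the average strain effect and at 0 for those on Il10 under all alternatives run. For the strain effect in wild type it was 0 with the hybridisation day as a block and 0 to 1 with 1 pool left out. For the strain effect in Il10-null it was 0 with the day as a block, 0 with only the compared groups in the fit, and 0 to 1 with 1 pool left out. The losses by leaving out a pool came only where the pool belonged to a compared group. The cause of these and of the other losses was not tested. The replicate block kept these counts, with a Cd14 average strain difference of 2.42 (limma adjusted p = 0.00238), and changed no other member's call. The log2 differences of Cd14 ran over all alternatives from 2.21 to 2.42 in wild type, 2.15 to 2.86 in Il10-null and 2.25 to 2.60 on average.

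Signs turned only for differences that did not pass. For Myd88, the Il10 effect in C57BL/6J was -0.23 with the day block, the strain effect in Il10-null 0.013 after quantile normalization and 0.031 at a common median, and the average Il10 effect 0.0069 after quantile normalization. With 1 pool left out, Myd88 ranged from -0.27 to 0.33 for Il10 in C57BL/6J, -0.31 to 0.15 for Il10 in C3H/HeJBir, -0.41 to 0.20 for the difference between these, -0.20 to 0.40 for strain in wild type, -0.066 to 0.053 for strain in Il10-null, -0.17 to 0.13 for the average Il10 effect and -0.10 to 0.20 for the average strain effect. Lbp ranged from -0.33 to 1.07 for Il10 in C57BL/6J and -0.029 to 1.38 for the difference between the Il10 effects, and Cd14 from -0.20 to 0.51 for that difference. Over all alternatives, the number of probe sets called ran from 0 to 1 for Il10 in C57BL/6J, 0 to 7 for Il10 in C3H/HeJBir, 2 to 53 for strain in wild type, 4 to 45 for strain in Il10-null, 0 to 11 for the average Il10 effect and 39 to 114 for the average strain effect, beside 0, 1, 30, 22, 0 and 83 as reported. Lbp, with a mean of 79.9, has no value under the filter at the 60th percentile, 88.0, and fitting only the compared groups gives none for the averages and the difference.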

Other observations

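Of the lipopolysaccharide-induced genes below the filter, Tnf, which encodes the cytokine TNF, read 112 and 45.4 in C3H/HeJBir Il10-null against 14.8 and 31.7 in C3H/HeJBir wild type. In C57BL/6J it read 11.3 and 30.5 in the Il10-null pools against 9.15 and 11.2 in wild type. Il1b, the gene of interleukin 1 beta, read 44.2 in sample 1 of C3H/HeJBir Il10-null and 1.88 to 9.54 in the other 7 pools. Not all genes of this list below the filter read higher with Il10 loss in C3H/HeJBir. Mean Cxcl2 was 7.08 in Il10-null against 19.8 in wild type, and Cxcl10 3.7 against 9.71. Il6 averaged 5.4 against 9.03 and Ccl4 7.07 against 7.4, while the rest averaged higher in Il10-null. Many of these values lie near the pseudocount, and these genes were not tested.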
